A study of Drosophila melanogaster with 2 samples.

Results

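The genes for the proteins of the cytoplasmic ribosome were examined in a chromatin immunoprecipitation experiment on Su(var)2-10 in Drosophila melanogaster embryos. They were taken from the annotation as the protein-coding genes whose symbols begin with RpL or RpS, plus sta, which encodes a small-subunit protein. Mitochondrial ribosomal protein genes and the ribosomal protein kinases were not included. Genes named -like were kept by symbol, and whether they encode proteins of the ribosome was not checked. The choice gave 93 of the 13945 protein-coding genes on 6 chromosome arms, 54 of the large and 39 of the small subunit. The rule used names and no measured values, but it was set with earlier results of these data known. The embryos were 0 to 24 h old and of mixed sex, from a transgenic line that expressed Su(var)2-10 with GFP at its C-terminal end. Cross-linked chromatin was sonicated to 200 to 800 bp, precipitated with an antibody to GFP and sequenced in 2 biological replicates of 1 group, numbered 2 and 3. The sources used here do not give the promoter that drove the transgene, and embryos without the tag were not analysed here. With 1 group, no test between conditions can be made, so every comparison below is a description with counting intervals.

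A eukaryotic ribosome joins a small subunit, which reads the mRNA, to a large subunit, which makes the peptide bond. Its proteins are made in nearly equal amounts in every growing cell, and loss of 1 copy of many of their genes gives the Minute flies, with slow growth and thin bristles. In flies and mammals many ribosomal protein genes start transcription at a pyrimidine-rich TCT initiator in place of the usual initiator. Su(var)2-10 is the fly PIAS protein, a SUMO ligase known for its part in heterochromatin and in the silencing of transposons.

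Promoter sequences are shown first for 8 of the 10 genes with the strongest peaks. Each runs from 120 bases before the first start site to 10 bases from it, on the strand of the gene, in dm6 coordinates with sequence from the RefSeq Release 6 assembly. Windows stop where an exon of another gene begins, which leaves 29 bases before the start of RpL7. Capitals mark 3 kinds of match, the DNA replication-related element (DRE) TATCGATA, the core of the Motif 1 binding protein (M1BP) element GGTCACAC on either strand, and a TCT initiator, read here as TCTTT with its C within 5 bases of the start. A match is a description of letters and not a measured site. Of these 8 genes, only RpL14 had its strongest summit inside the window shown.
RpS27 (chr3R:25247505-25247634, minus strand): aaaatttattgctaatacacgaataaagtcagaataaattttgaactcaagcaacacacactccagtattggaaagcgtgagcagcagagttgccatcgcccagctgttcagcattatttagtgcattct
RpL34b (chr3R:9401217-9401346, minus strand): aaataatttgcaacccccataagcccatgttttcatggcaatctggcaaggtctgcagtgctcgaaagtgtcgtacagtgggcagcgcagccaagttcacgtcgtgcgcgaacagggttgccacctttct
RpS10b (chrX:19597911-19598040, plus strand): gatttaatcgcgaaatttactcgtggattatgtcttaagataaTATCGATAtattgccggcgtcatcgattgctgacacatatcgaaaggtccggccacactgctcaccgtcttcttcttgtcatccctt
RpS27A (chr2L:10408232-10408361, plus strand): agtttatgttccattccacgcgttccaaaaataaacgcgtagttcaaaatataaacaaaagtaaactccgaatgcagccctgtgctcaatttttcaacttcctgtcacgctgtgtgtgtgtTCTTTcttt
RpL28 (chr3L:3222951-3223080, minus strand): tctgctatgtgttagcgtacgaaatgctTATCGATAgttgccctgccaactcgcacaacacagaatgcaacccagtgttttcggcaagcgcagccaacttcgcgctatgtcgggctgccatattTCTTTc
RpS3A (chr4:67198-67327, minus strand): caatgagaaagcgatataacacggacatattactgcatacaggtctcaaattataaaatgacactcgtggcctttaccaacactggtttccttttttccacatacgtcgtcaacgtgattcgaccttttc
RpL7 (chr2L:10200975-10201013, plus strand): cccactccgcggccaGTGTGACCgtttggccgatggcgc
RpL14 (chr3L:8600886-8601015, plus strand): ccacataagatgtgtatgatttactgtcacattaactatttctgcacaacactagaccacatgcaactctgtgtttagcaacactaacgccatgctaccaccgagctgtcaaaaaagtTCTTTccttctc
RpS10b and RpL28 hold a DRE that begins 77 and 92 bases before the start. RpS27A, RpL28 and RpL14 hold a TCT initiator, and RpL7 holds the M1BP core on its other strand. RpS27, RpL34b and RpS3A hold none of these letters in the window.

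A second set shows families of paralogous genes in which 1 gene had a reproducible peak and the other had none, with the same marks. RpL10Ab, RpS14a and RpS28b are the genes with the peak, and RpL7 and RpS10b, partners of RpL7-like and RpS10a, stand above.
RpL7-like (chr2L:12056206-12056335, plus strand): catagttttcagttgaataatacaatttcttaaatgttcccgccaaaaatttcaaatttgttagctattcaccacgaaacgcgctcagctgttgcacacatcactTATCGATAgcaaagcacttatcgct
RpS10a (chr3R:27652640-27652769, plus strand): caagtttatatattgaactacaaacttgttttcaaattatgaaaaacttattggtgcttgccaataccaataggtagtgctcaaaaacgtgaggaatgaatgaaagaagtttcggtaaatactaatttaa
RpL10Ab (chr3L:11822731-11822860, plus strand): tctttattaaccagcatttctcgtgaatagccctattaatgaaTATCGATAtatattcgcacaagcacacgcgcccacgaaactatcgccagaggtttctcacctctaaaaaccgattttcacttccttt
RpL10Aa (chr3R:15037246-15037375, plus strand): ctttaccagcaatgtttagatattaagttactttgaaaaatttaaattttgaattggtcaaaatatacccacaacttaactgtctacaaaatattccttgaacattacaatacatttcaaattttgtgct
RpS14a (chrX:7933622-7933751, plus strand): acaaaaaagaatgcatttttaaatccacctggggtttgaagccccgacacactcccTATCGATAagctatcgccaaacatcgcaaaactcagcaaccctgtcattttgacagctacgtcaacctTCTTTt
RpS14b (chrX:7934778-7934907, plus strand): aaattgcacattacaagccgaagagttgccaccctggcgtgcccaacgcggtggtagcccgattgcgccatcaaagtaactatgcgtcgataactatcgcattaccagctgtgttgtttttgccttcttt
RpS28b (chrX:9554503-9554632, plus strand): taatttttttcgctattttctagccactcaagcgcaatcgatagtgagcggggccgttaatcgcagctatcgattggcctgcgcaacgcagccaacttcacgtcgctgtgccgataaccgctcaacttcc
RpS28a (chr3R:30022639-30022768, minus strand): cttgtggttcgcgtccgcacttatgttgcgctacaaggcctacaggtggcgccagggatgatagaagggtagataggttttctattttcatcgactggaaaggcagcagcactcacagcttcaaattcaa
RpL10Ab, RpS14a and RpS10b hold a DRE in this window, and RpL10Aa, RpS14b and RpS10a do not. RpL7-like holds 1 and RpL7 holds none. Over the 8 families with a peak at 1 gene, in the wider promoter window used below, a DRE stood at the gene with the peak alone in 3, at the other gene alone in the RpL7 family, at both in RpS15Aa and RpS15Ab, and at none in the RpL22, RpLP0 and RpS28 families. The start of RpS28-like lies against an exon of another gene, and its window is not shown.

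Su(var)2-10-GFP lay at the promoters of about every second ribosomal protein gene. The authors deposited 30000 candidate peaks for each replicate and for the pooled replicates, and 2942 reproducible peaks, which are the 2942 of highest signal in the pooled list. A gene was counted when a peak summit lay within 500 bp of any of its annotated start sites. By this count 47 of 93 ribosomal protein genes had a reproducible peak (50.5%, 95% Wilson interval 40.6 to 60.5%), against 12.1% of all protein-coding genes. Mitochondrial ribosomal protein genes had one in 15 of 73 cases (20.5%, 12.9 to 31.2%), and genes for translation initiation and elongation factors in 10 of 52 (19.2%, 10.8 to 31.9%). Wilson intervals here cover the counting of genes only, and genes of 1 sample pool are not replicates.

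Genes of the large subunit held a peak more often than those of the small subunit. The count was 33 of 54 for the large subunit (61.1%, 47.8 to 73.0%) and 14 of 39 for the small subunit (35.9%, 22.7 to 51.6%), a difference of 25.2 percentage points with overlapping intervals. Among the 2942 strongest peaks of replicate 2 alone, 31 large-subunit genes (57.4%) and 17 small-subunit genes (43.6%) had one, together 48 of 93 against 11.8% of all genes. Among those of replicate 3 alone the counts were 30 (55.6%) and 13 (33.3%), together 43 against 12.6%. Both replicates thus put the large subunit higher, by 13.8 points in replicate 2 and 22.2 points in replicate 3. The gap was not tested, since the genes share 1 pool of chromatin.

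In the candidate list, which holds peaks too weak to pass the authors' reproducibility threshold as well, 72 of 93 ribosomal protein genes had a summit (77.4%, 67.9 to 84.7%), against 36.7% of all genes. The large subunit had 47 of 54 (87.0%, 75.6 to 93.6%) and the small subunit 25 of 39 (64.1%, 48.4 to 77.3%). Over genes with a candidate, the median pooled signal was 179.8 for the large subunit and 133 for the small. The signal is the authors' score with no fixed unit and is compared only within a list. Once a reproducible peak was present, its median signal was alike in both subunits, 201 over 33 large-subunit genes and 200.4 over 14 small-subunit genes.

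**Figure D1:**
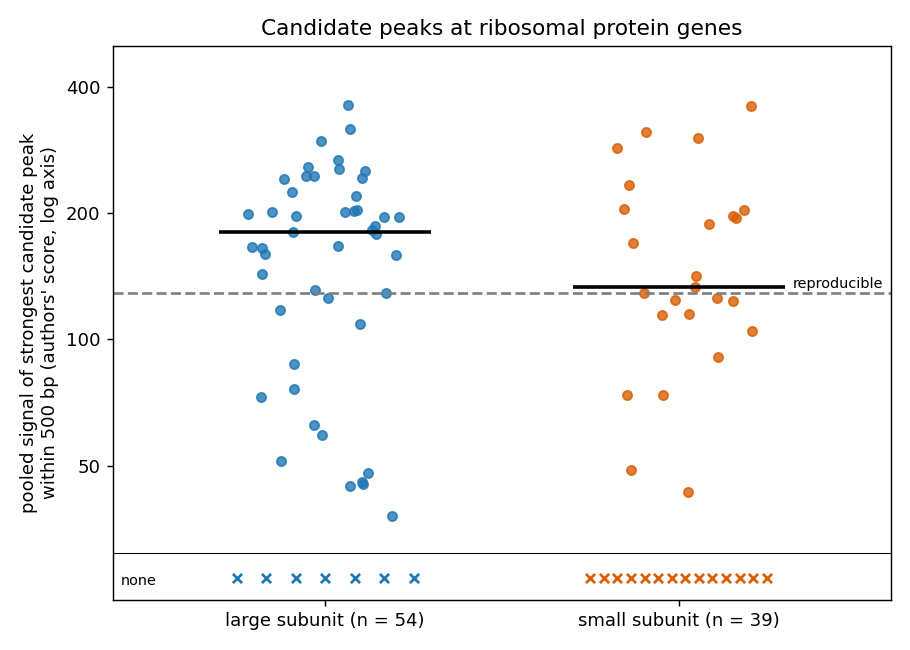
Pooled signal of the strongest candidate peak within 500 bp of a start site (authors' score, log axis), 1 point a gene, for 54 large-subunit and 39 small-subunit genes. Bars are medians over genes with a candidate (179.8 and 133), the dashed line is the lowest signal in the reproducible list (129), and crosses are the 7 large-subunit and 14 small-subunit genes with no candidate.

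The peaks at ribosomal protein genes were of middle strength. Their signals had a median of 201 (quartiles 174 and 245, 47 genes), while those of all 1689 genes with a reproducible peak had a median of 219 and reached 1208. The median rank was 1373 for ribosomal protein genes and 1151 for all such genes. Among genes whose strongest peak ranked 1 to 500, 2 of 383 were ribosomal protein genes (0.522%). They made up 13 of 362 at ranks 501 to 1000 (3.59%), 24 of 575 at ranks 1001 to 2000 (4.17%) and 8 of 369 at ranks 2001 to 2942 (2.17%). Of genes with no candidate they made up 21 of 8821 (0.238%), and of all genes 0.667%. The share of ribosomal protein genes was highest between ranks 501 and 2000, and at ranks 1 to 500 it was close to their share of all genes.

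Among the strong peaks of the large subunit were those at RpL34b and RpL28. RpL34b, at chr3R:9401148-9401683, had a signal of 317 (rank 567 of 2942), with 149.5 in replicate 2 and 164 in replicate 3 (ranks 654 and 525). RpL28, at chr3L:3222887-3223422, had 297 (rank 638), with 149 and 147 (ranks 658 and 683). Both genes stood at nearly the same rank in each replicate, with summits 190 and 195 bp upstream.

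RpL7 and RpL12 were stronger in replicate 3 than in replicate 2. RpL7, at chr2L:10200748-10201283, had a signal of 267 (rank 783), with 93.3 in replicate 2 (rank 1521) and 168 in replicate 3 (rank 486), and its summit lay 12 bp inside the gene. RpL12, which sits at the base of the stalk that recruits elongation factors, had 258 (rank 837), with 88.4 (rank 1673) and 169 (rank 478), at chr2R:24059844-24060379 and 266 bp upstream. RpL14, at chr3L:8600681-8601216, and RpL32, at chr3R:30046054-30046589, leaned the other way. RpL14 had 254 (rank 867), ranked 801 in replicate 2 and 1148 in replicate 3, with the summit 57 bp upstream. RpL32, the gene much used as an expression standard in flies, had 245 (rank 934), ranked 741 and 1333, with the summit 161 bp upstream.

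The stalk proteins RpLP0, RpLP1 and RpLP2, which bind elongation factors, all had a reproducible peak. RpLP1 had the highest signal, 251 (rank 891), at chr2L:419558-420093, ranked 1251 in replicate 2 and 740 in replicate 3, 126 bp upstream. RpLP2 had 195 and RpLP0 had 186. RpL5 and RpL11, which carry the 5S rRNA into the subunit, had 182 and 160.2. RpL11 rested mostly on replicate 3, with a signal of 115 there (rank 1162) and 35.3 in replicate 2 (rank 8561).

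Proteins in or near the tunnel that the new peptide leaves by, picked as examples after their values were seen, included genes with and without a reproducible peak. RpL4, whose loop reaches into the tunnel, had a signal of 241 and RpL39, a very short protein of the tunnel, had 178. RpL19 had 220.0, RpL31 had 203, RpL23A and RpL26 had 196 each, and RpL17 had 159. RpL10, which completes the catalytic centre late in assembly, had 201. RpL35 and RpL38, from the same region, did not pass and had pooled candidates of 37.9 and 51.4. RpL3, a core protein of the peptidyl transferase centre, did not pass either, with 72.8.

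Other large-subunit genes with a reproducible peak included RpL13A (244), RpL10Ab (242), RpL18 (224), RpL41 (203), RpL36 (201), RpL23 (199), RpL22 (179.8), RpL27A (167), RpL30 (166), RpL34a (165), RpL7A (143), RpL8 (131) and RpL27 (129). RpL41, which encodes the shortest of these proteins, ranked 3437 in replicate 2 and 812 in replicate 3. RpL30 showed the same lean, with ranks of 6190 and 1089. RpL8 leaned to replicate 2, with ranks of 1595 and 7862.

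In the small subunit RpS27, a zinc-finger protein, had the strongest peak, at chr3R:25247222-25247757. Its summit lay 18 bp upstream of the nearest start and 24 bp inside the main start. Its signal was 359.6 (rank 424), with 201 in replicate 2 (rank 351) and 158 in replicate 3 (rank 581). RpS10b, at chrX:19597563-19598098, had 312 (rank 587), with 156 and 159 (ranks 608 and 571), 200 bp upstream. RpS27A, made as a fusion of ubiquitin with a ribosomal protein, had 302 (rank 618) at chr2L:10407955-10408490, with 137 and 159 (ranks 779 and 575), 129 bp upstream. RpS3A, the only ribosomal protein gene on chromosome 4, had 285 (rank 699) at chr4:67106-67641, with 159.7 and 116 (ranks 576 and 1139), 167 bp upstream. Of these 4 genes only RpS3A fell below rank 1000 in a replicate.

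The other small-subunit genes with a reproducible peak were weaker. RpS16 had a signal of 233, RpS6, the substrate of the growth-regulated S6 kinase, had 204, and RpS20 had 204. RpS4 had 197, RpS12, known in flies from cell competition, had 195, and RpS7 had 188. RpS21 had 169.8, RpS15Aa had 141, RpS28b had 133 and RpS14a had 129. RpL40, the large-subunit protein that is also made as a ubiquitin fusion, had a pooled candidate of only 44.7.

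For 21 genes, 7 of the large and 14 of the small subunit, the pooled list held no candidate. No pooled summit lay within 500 bp of RpS2, RpS3 or RpS30 at the mRNA entrance, or of RpS23 at the decoding centre. Other small-subunit genes without one included RpS9, RpS10a, RpS13, RpS19b, RpS24, RpS28a, RpS28-like and RpS29. In the large subunit they were RpL6, RpL7-like, RpL10Aa, RpL21, RpL22-like, RpL24-like and RpL37-2. Some of these genes had a candidate in a replicate list. RpL6 had one in replicate 3 (signal 75.2, rank 2710), and its nearest pooled summit was 537 bp away. RpS9 (44.0), RpS2 (34.5) and RpS13 (25.3) had weaker ones in replicate 3, RpL21 (32.0) had one in replicate 2, and RpS30 had one in each (29.0 in replicate 2 and 24.1 in replicate 3). Depth is unknown, so absence from a list means only that no peak was listed there.

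The threshold fell inside a continuous series of signals. The last genes inside were RpL8 (131, rank 2857), RpS14a (129, rank 2921) and RpL27 (129, rank 2924). Among the first outside were RpL13 (126, rank 3055), RpS5b (124, rank 3112) and RpS25 (123, rank 3156). The remaining genes with a pooled candidate had signals from 37.9 at RpL35 to 118 at RpL35A. Among them were RpS19a and RpS5a (115 each), RpL37A (109), sta (105), RpS18 (90.8), RpL24 (87.5), RpL36A (76.2), RpS26 (73.9) and RpS15 (73.8). RpL9 (59.2), RpL29 (48.2), RpL15 (45.8) and RpL37-1 (45.4) were lower still.

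Most genes with a reproducible peak were among the best of both replicates, but their order differed. The reproducible peaks were selected from the pool of these 2 replicates, so the counts that follow are partly set by that selection. Of the 47 genes with a reproducible peak, all had a candidate in both replicate lists. For 36 it was among the best 2942 of both, for 6 of replicate 2 alone, for 4 of replicate 3 alone and for 1, RpS15Aa, of neither. Of the 46 other genes none was among the best of both, 6 were in replicate 2 alone and 3 in replicate 3 alone. RpS5a and RpS5b stood apart. RpS5a ranked 1696 in replicate 2 and 16217 in replicate 3, and RpS5b 14867 and 1748. Over the 65 genes with a candidate in both replicates Spearman's rho of the signals was 0.598, and over the 47 it was 0.352. Both are descriptions, because the genes share libraries and depth. The 47 were also cut by pooled signal, which narrows their range. In 39 of the 47 the strongest summits of both replicates lay within 100 bp of the pooled one.

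**Figure D2:**
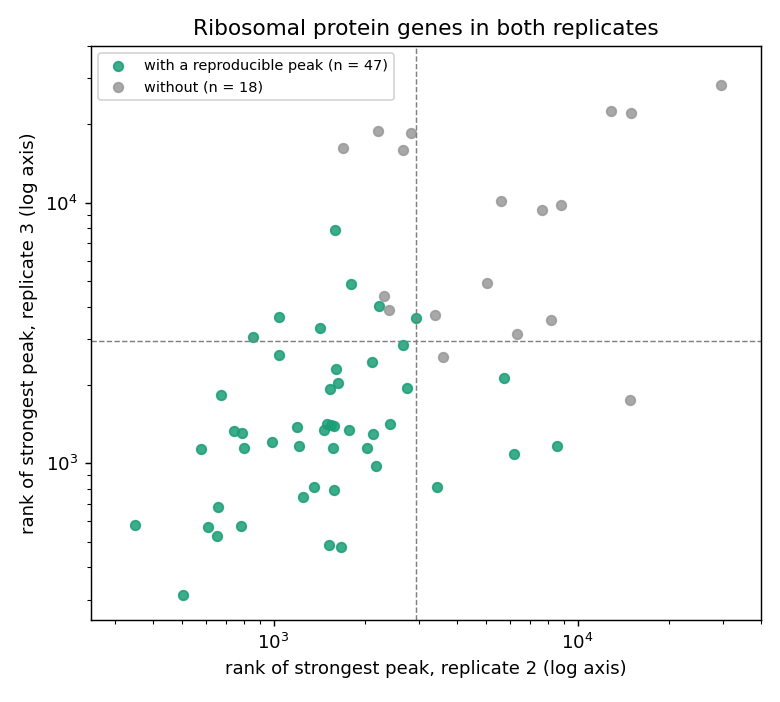
Rank of the strongest candidate peak within 500 bp of a start site in replicate 2 (x) and replicate 3 (y), both log axes, for the 65 ribosomal protein genes with a candidate in both, 1 point a gene. Dashed lines mark rank 2942. Green points, the 47 genes with a reproducible peak, fill the lower left corner with 36 genes, which holds none of the grey points. Reproducible peaks were selected from the pool of both replicates, so this split is partly set by the selection.

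Summits lay just upstream of the start sites. With upstream positions written as negative, the median position of the strongest summit was -143 bp (quartiles -172 and -60) over the 47 genes, from -389 bp at RpS28b to 64 bp at RpL5. All genes with a reproducible peak had a median of -177 bp (quartiles -266 and -111). The summit was upstream of the nearest start in 41 of 47 ribosomal protein genes (87.2%) and in 90.3% of all genes with a peak. It lay within 99 bp of a start in 15 genes, at 100 to 199 bp in 24, at 200 to 299 bp in 3 and at 300 to 399 bp in 5. None of the 47 lay farther out, although the limit was 500 bp.

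RpL7, RpS4, RpL26, RpLP0, RpL5 and RpL27 had their summits inside the nearest start, 12, 20, 21, 37, 64 and 34 bp downstream. RpS27 and RpS16, for example, count as upstream of their nearest start, but their summits lay 24 and 255 bp inside the main start. The farthest inside the limit were RpS28b (389 bp), RpL39 (384 bp) and RpL10Ab (355 bp). The nearest reproducible summits outside it were at RpLP0-like (1006 bp), RpS14b (1302 bp) and RpS23 (1311 bp), which leaves a wide gap around the limit. The 47 genes held 59 distinct peaks, 12 genes with 2 peaks each, and no peak served 2 ribosomal protein genes.

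**Figure D3:**
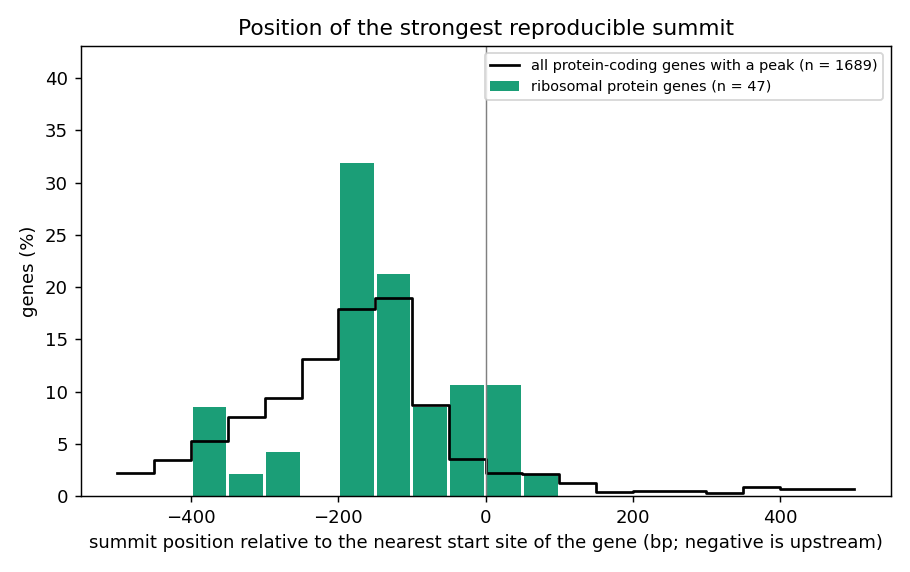
Position of the strongest reproducible summit relative to the nearest start site (x, bp, negative is upstream, bins of 50 bp) as a percentage of genes (y), for 47 ribosomal protein genes (bars) and all 1689 protein-coding genes with a peak (line). Between 200 and 100 bp upstream lie 25 of the 47 genes.

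Ribosomal protein genes often share their promoter region with a gene read in the opposite direction. A divergent protein-coding start lay within 500 bp upstream of 37 of the 93 (39.8%), against 27.4% of all genes, and no such neighbour was itself a ribosomal protein gene. Of these 37 genes 21 had a reproducible peak (56.8%, 40.9 to 71.3%), against 23.6% of all genes with a divergent neighbour. Of the 56 without one, 26 did (46.4%, 34.0 to 59.3%), against 7.80% of all such genes. The peaks at ribosomal protein genes were thus not limited to promoters shared with a divergent start within 500 bp. In the large subunit the counts were 16 of 22 with and 17 of 32 without a neighbour. In the small subunit they were 5 of 15 and 9 of 24. Mitochondrial ribosomal protein genes, most of which have a divergent neighbour, had 13 of 53 and 2 of 20.

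**Figure D4:**
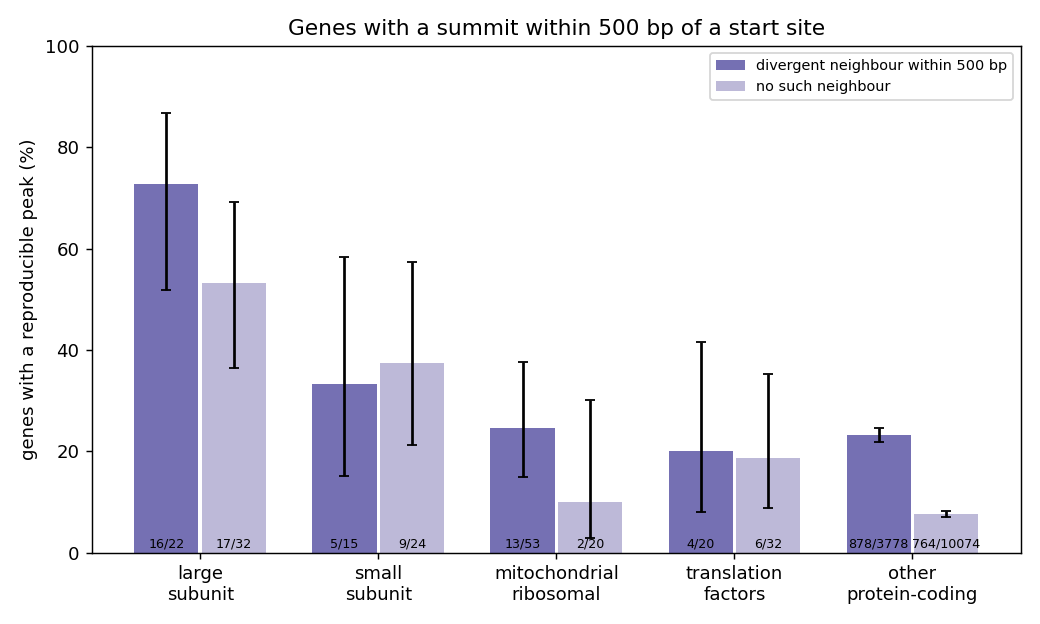
Percentage of genes with a reproducible summit no more than 500 bp from a start (y), split by a divergent protein-coding start within 500 bp (dark) or none (pale). Bars start at 0, error bars are 95% Wilson intervals and counts stand at the foot of each bar, from 16 of 22 for the large subunit with a neighbour to 764 of 10074 for other protein-coding genes without one.

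In a shared promoter the list cannot say which gene a peak belongs to. Of the 21 genes, 17 had the strongest summit between both starts, and in 14 it was nearer their own start, measured from the main annotated start of each gene. RpL28 shared 381 bp with eIF1, which encodes a translation initiation factor, with the summit 195 bp from its own start and 186 bp from the other. RpL34b shared 269 bp with CG8132 (190 and 79 bp), RpL34a 229 bp with Trmt61, a tRNA methyltransferase gene (155 and 74 bp), and RpL32 309 bp with CG7943 (161 and 148 bp). RpL4 with BCAS2, and RpL41 with the sodium channel gene NaCP60E, also had the summit nearer the neighbour.

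RpS27 lay 144 bp from Nup37, a nuclear pore gene, and RpL7 30 bp from Ripalpha. In both the summit fell outside the shared interval, 24 and 12 bp from the main start of the ribosomal protein gene. RpL14 shared 127 bp with Nelf-E, which encodes part of a factor that holds RNA polymerase near the start, with the summit 57 and 70 bp away. RpLP1 and CG13690 were 300 bp apart (126 and 174 bp). RpLP0 and CG7130 were 111 bp apart, with the summit 37 bp from the RpLP0 start on its gene side, and RpS14a and Dhdds were 391 bp apart (146 and 245 bp). RpL13, just short of the threshold, lay 84 bp from Dref, the gene for the protein that binds the DRE. Counting only the protein-coding gene nearest to each summit left 39 ribosomal protein genes (41.9%), against 9.25% of all genes. Of these 26 were of the large subunit and 13 of the small, a gap of 14.8 points in place of 25.2.

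Some ribosomal proteins are encoded by more than 1 gene. Grouped by symbol there were 13 families of related genes, 12 of 2 genes and 1 of 3. A gene named -like need not encode the same ribosomal protein as its partner. The share of identical coding bases ran from 46.6% for RpLP0 and RpLP0-like to 98.2% for RpS15Aa and RpS15Ab. It was 49.2% for RpL24 and RpL24-like and 55.3% for RpL7 and RpL7-like. Exactly 1 gene had a reproducible peak in 8 families, both in 1 and none in 4. Genes in families had a peak in 10 of 27 cases and single genes in 37 of 66. RpL34a (165) and RpL34b (317) were the pair with both.

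RpS10b (312) had a peak and RpS10a had no candidate within 500 bp in any of the lists, although 74.0% of their coding bases are identical. RpL7 (267), RpL10Ab (242) and RpL22 (179.8) had peaks, while RpL7-like, RpL10Aa and RpL22-like had no candidate. RpLP0 (186) had a peak and RpLP0-like a pooled candidate of 62.4, with none in replicate 2. RpS28b (133) had one, and RpS28a and RpS28-like had none. RpL22-like is known for its expression in the germ line. RpL24 had a pooled candidate of 87.5 and RpL24-like none, RpL37-1 had 45.4 and RpL37-2 none, and RpS19a had 115 and RpS19b, known for its expression in the germ line, none. RpS5a and RpS5b, another germ line copy, had 115 and 124.

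For RpS14a and RpS14b, and for RpS15Aa and RpS15Ab, 97.8% and 98.2% of coding bases are identical. RpS14a had a signal of 129, with 43.1 in replicate 2 and 85.7 in replicate 3. RpS14b, whose start lies 1156 bp away, had 43.3 in the pooled list, none in replicate 2 and 53.7 in replicate 3. RpS15Aa had 141 (63.3 and 64.2), and RpS15Ab 48.8 in the pooled list and 46.3 in replicate 3. The sources used here do not say how reads that match both copies were placed, so these values are uncertain. The promoters differ more than the coding sequences, with 55.0% identical bases for the RpS14 pair and 48.0% for the RpS15A pair. Over all pairs compared, promoter identity ran from 45.7% to 55.0%. The level for unrelated promoters was not computed, so these values do not show that any promoter bases are conserved.

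**Figure D5:**
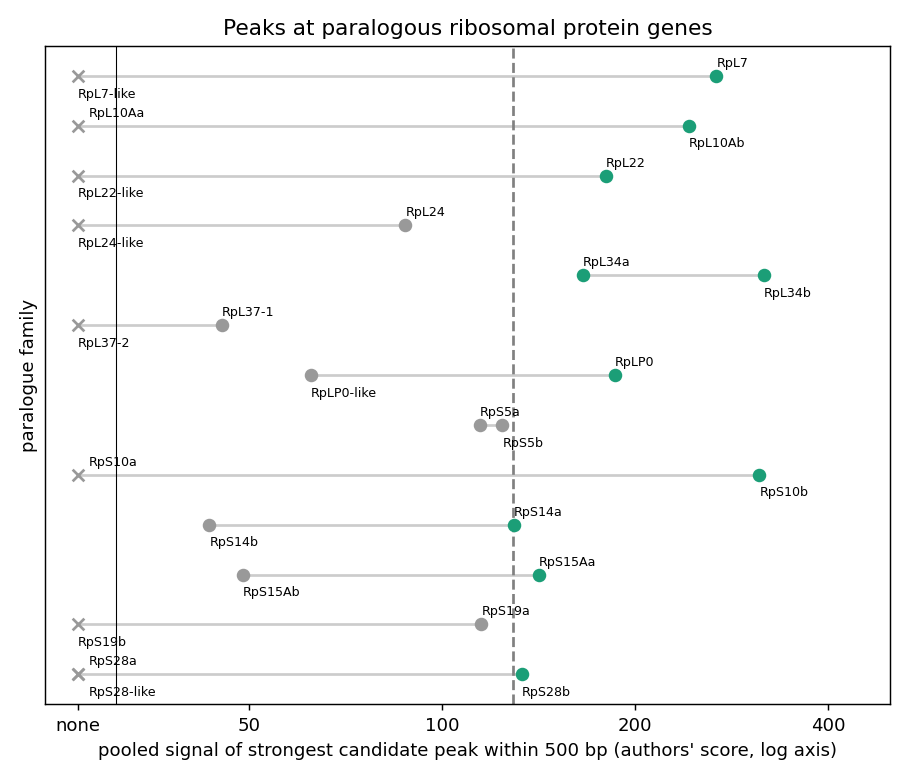
Pooled signal of the strongest candidate peak within 500 bp (x, authors' score, log axis) for each gene of 13 families of paralogues, 1 line a family. Green points had a reproducible peak, grey points did not, crosses had no candidate, and the dashed line is the lowest signal in the reproducible list (129); RpL34a and RpL34b are the only family with more than 1 green point.

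The promoters of these genes carry letters that the choice of genes did not use. In the window from 250 bases before to 50 after the main start, a DRE was found in 28 of 93 (30.1%) against 8.94% of all promoters. Its core CGATA, which every DRE contains, was in 66 (71.0%) against 46.9%, and the M1BP core in 14 (15.1%) against 7.54%. A TCT initiator was searched around every annotated start of a gene, not in this window. It was found in 45 (48.4%) against 2.23%, in 0 of 73 mitochondrial ribosomal protein genes and in 5 of 52 translation factor genes. RpL34b and RpS14b count among the 45 by a start other than the one shown above. The GAGA repeat GAGAG was in 16 (17.2%) against 30.2%, and a TATA box read as TATAAA in 42 (45.2%) against 45.3%. The E-box CACGTG was in 11 of 54 large-subunit promoters and 0 of 39 small-subunit promoters, against 4.26% of all. All but the TCT initiator were searched on both strands.

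These letters stood in promoters with and without a peak. A DRE stood in 17 of the 47 promoters with a peak and 11 of the 46 without. A TCT initiator stood in 24 of 47 and 21 of 46. In the 200 bp around the strongest summit, a DRE was found at 8 of 47 ribosomal protein genes (17.0%, 8.89 to 30.1%), against 4.14% of the 1451 reproducible summits within 500 bp of any protein-coding start. Among these were RpS10b, RpL19, RpL41, RpL26, RpL34a, RpS14a and RpL27, and at RpL19 the DRE lay 6 bp from the summit. At RpS10b the DRE counted here lay 58 bp from the summit. It is not the one marked above, which lies outside the 200 bp. GAGAG was found at 2 of 47, RpLP1 and RpL7A (4.26%), against 21.2% of such summits. CGATA was found at 26 (55.3%) against 30.1%, and TATAAA at 14 (29.8%) against 44.8%.

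Many of these genes carry small nucleolar RNAs in their introns, which guide changes to ribosomal RNA. An annotated snoRNA gene lay in 29 of the 93 (31.2%), against 0.602% of all genes. A reproducible peak was found at 20 of these 29 (69.0%, 50.8 to 82.7%) and at 27 of the 64 others (42.2%, 30.9 to 54.4%). Over all 84 host genes, these 29 among them, the count was 39 (46.4%), with the same 20 included. RpS7, with 7 snoRNA genes, RpL28 and RpS16, with 5 each, and RpL23A and RpL17, with 4 each, had a peak. RpS5a, with 14, and RpL3, with 4, did not. Ribosomal protein genes with more than 1 annotated start had a peak in 23 of 45 cases and those with 1 start in 24 of 48, nearly equal shares. Over all protein-coding genes the shares differed, with 816 of 3699 (22.1%) for more than 1 start and 873 of 10246 (8.52%) for 1 start.

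By chromosome arm, a peak was found at 11 of 14 ribosomal protein genes on 3L (78.6%, 52.4 to 92.4%) and 9 of 15 on X (60.0%, 35.7 to 80.2%). It was found at 10 of 21 on 2R, 9 of 23 on 3R, 7 of 19 on 2L and the 1 gene on chromosome 4. The arms differ little for all genes, from 10.5% on X to 13.5% on 3L, apart from chromosome 4 with 17 of 80 (21.3%).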

How the data were processed

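Chromatin precipitated with anti-GFP was measured in 2 biological replicates of 1 group. For each replicate, for the pooled replicates and for the peaks past a reproducibility (IDR) threshold, the authors deposited a peak list on dm6 and on dm3, and replicate lists were called against a control, per the submitters' file notes. The sources used here name no aligner, peak caller or IDR threshold. Each deposited peak carries the authors' signal, a score with no fixed unit, a −log10 q, and a summit offset. Only the dm6 lists were used. No read totals were used, so the depth of each sample is unknown.

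The gene models were those of Ensembl (BDGP6.54, release 115), and bases were read from RefSeq Release 6, which is dm6. Arm lengths were checked against the highest peak ends. Python 3.11.15 with numpy 2.4.6, pandas 2.3.3, scipy 1.17.1 and Biopython 1.88 assigned to each gene the strongest summit within 500 bp of any start, and the assignment was tested on simulated data. A peak can count for more than 1 gene. Shares have 95% Wilson intervals, which cover counting only. The 12 genes of highest signal, genes in paralogue families, every gene with a reproducible peak, every gene without a candidate, and 3 genes on each side of each limit were named by rule; other genes and the grouping by place in the ribosome were chosen after their values were seen. Tables of promoter and protein sequences were not used here, so promoters were read from the genome and copies were compared over coding bases. A few genes are not reported here by name. The genes and lists were chosen with earlier results of these data known.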

Additional observations from a re-analysis of the deposited data

How the results depend on the processing

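Across 53 recomputed values, 43 kept their value within the limits set (a count within 1.5 times, a median within its spread). With the stronger 1471 reproducible peaks, 29 ribosomal protein genes had one (31.2%), against 7.46% of all genes. Of these 29, 21 were of the large subunit and 8 of the small, a gap of 18.4 percentage points. With all candidate peaks 72 genes had one (77.4%, against 36.7% of all genes), 25 of them small-subunit genes. With the nearest protein-coding gene only, the gap was 14.8 points. Without genes named -like, the count stayed at 47 and the gap was 29.2 points. Using 1 replicate alone gave 43 to 48 genes, 30 to 31 of the large and 13 to 17 of the small subunit, and a gap of 13.8 to 22.2 points. The same lists gave 21 to 23 genes with a divergent neighbour and a peak, and 8 to 9 families with 1 such gene. Divergent starts up to 1000 bp apart gave 33 genes with a neighbour and a peak in place of 21. Some genes counted above as without a neighbour thus have one between 500 and 1000 bp away. No share of all genes is given at this distance, so the count shows no preference. The median position of the nearest summit moved from -126 to -142 bp with the main start only. The causes were not tested. No paired analysis was possible because there is 1 group. Widening the limit to 1000 bp added no ribosomal protein gene, and 250 bp left 44. The share of all genes was 14.2% at 1000 bp and 9.10% at 250 bp, against 12.1% at 500 bp. Unknown depth limits any statement on genes without a listed peak.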
